A study of Mus musculus with 28 samples.

Results

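Dermal papilla cells (DP) were compared with dermal fibroblasts (DF) sorted from dermal preparations of the same mouse line, in 4 of the 28 libraries of the study, 2 of each population. The 4 libraries were chosen by their labels and not by any measured value. Of 23015 genes in the expression table, whose unit is FPKM (sequenced fragments per kilobase of transcript, a level corrected for length), 12752 had at least 1 FPKM in at least 2 of the 4 libraries, and these genes were compared. All 4 libraries came from back skin at postnatal day 5 of mice carrying K14-H2BGFP, a green nuclear label driven by the keratin 14 promoter of basal keratinocytes, together with Lef1-RFP, a red reporter. The mice were of mixed strain, from CD1, FVB/N and C57BI/6J. DP cells were gated as Lef1-RFP+ and ITGA9Hi, that is, with high surface integrin alpha 9. DF cells were gated as Lef1-RFP+, CD117- and ITGA9-, CD117 being the Kit receptor carried by melanocytes. The DF label names no exclusion of GFP-positive keratinocytes, and the DP label names no CD117 gate. Another 6 populations of the same mouse line served as reference levels: epidermis (Epi), outer root sheath (ORS), matrix (Mx), transit-amplifying matrix cells (TAC), melanocytes (Mc) and a mixed marker-negative fraction (Neg). The labels do not say whether the 2 libraries of a population came from separate animals or pools. The p-values rest on the spread between the 2 libraries of a population, pooled over 14 populations. That spread may be partly technical. For a gene nearly absent from most populations the pooled spread is small, so its SE can understate the spread in DP or DF. Y-linked RNA, given below, differed between replicates 1 and 2 of DP and DF, so these did not hold the same mix of animals.

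The dermal papilla is a cluster of specialised mesenchymal cells at the base of the hair follicle. It sends secreted signals of the Wnt-modulating, FGF and BMP families to the epithelial matrix above it, which divides and differentiates into the hair shaft and its sheaths, and to the melanocytes that pigment the hair. Dermal fibroblasts build the collagen-rich matrix between follicles and arise from the same mesenchyme.

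The gate gene and the given papilla markers separated the populations. Itga9, the gate's integrin (chr9:118606709-118901003, GRCm38.p6), stood at 113 and 109 FPKM in the DP libraries and at 9.37 and 29.8 FPKM in the DF libraries. Its log2(FPKM + 1) difference was 2.65 ± 0.50 (SE, limma, adjusted p = 0.00144). Rspo3, a secreted R-spondin that raises Wnt receptor levels (chr10:29453106-29535867), was at 664 and 786 FPKM in DP against 93.1 and 127 FPKM in DF, a log2 difference of 2.72 ± 0.43 (adjusted p = 0.000349). Both genes kept the 2 populations apart without overlap. With 2 libraries in each population, a lack of overlap, here and below, is a description and carries no test. Corin, a membrane serine protease used as a papilla marker (chr5:72299948-72504540), was at 372 and 472 FPKM against 83.9 and 104 FPKM (log2 difference 2.16 ± 0.32, adjusted p = 0.000172). Alx4, a homeobox factor of mesenchyme (chr2:93642434-93681341), was at 143 and 147 FPKM against 35.8 and 31.5 FPKM (log2 difference 2.08 ± 0.36, adjusted p = 0.000746). Sox2, a transcription factor found in the papillae of some follicle types (chr3:34649995-34652461), was at 28.9 and 20.3 FPKM against 1.89 and 4.37 FPKM (log2 difference 2.68 ± 0.64, adjusted p = 0.0101). All 5 markers were thus higher in DP, but none was absent from DF: the DF mean was 12.7% of the DP mean for Sox2, 15.2% for Rspo3, 17.6% for Itga9, 22.2% for Corin and 23.2% for Alx4. Whether papilla cells in the DF gate or papilla transcripts in fibroblasts give these levels was not tested. With DF replicate 1 left out, Itga9 and Sox2 were no longer called (adjusted p = 0.0587 and 0.144). A pseudocount of 0.1 in place of 1 ended the calls of Rspo3, Sox2 and Alx4.

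Lef1, whose reporter both gates share and which encodes a Wnt-responsive transcription factor, was at 96.7 and 87.5 FPKM in DP and at 125 and 56.1 FPKM in DF, so that the groups overlapped (log2 difference 0.13 ± 0.42, adjusted p = 0.915). Kit, whose protein the DF gate excluded, ran the other way from the gate, at 9.0 and 5.86 FPKM in DP and 40.2 and 55.4 FPKM in DF (log2 difference -2.54 ± 0.56, adjusted p = 0.00545). Without DP replicate 2 the Kit call was lost (adjusted p = 0.0631).

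FPKM sums of the 4 libraries lay between 325416 and 339299.7, and 11977 to 12497 genes reached 1 FPKM in each. The files give no read counts, so depth and counting intervals are unknown. Across genes, log2(FPKM + 1) correlated at 0.906 between the DP libraries and at 0.886 between the DF libraries, and at 0.785 to 0.859 between a DP and a DF library. Xist was at 506 and 868 FPKM in DP and at 294 and 579.9 FPKM in DF, and the Y-linked Ddx3y at 4.65 and 0.03 FPKM against 3.25 and 0 FPKM. Replicate 1 of both populations therefore held RNA of male cells and replicate 2 held little or none, and neither gene was called.

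RNA of other skin cells differed between the libraries and is given before the gene groups, because it moves with them. All 14 melanocyte markers were lower in DP. Their summed level was 31.8 and 33.9 FPKM in DP and 1637 and 1654 FPKM in DF. Mlana, a melanosome protein, was at 1.37 and 5.76 FPKM against 297 and 304 FPKM (log2 difference -6.23 ± 0.94, adjusted p = 0.000223). Dct, a pigment-synthesis enzyme, was at 3.49 and 5.21 FPKM against 438 and 334 FPKM (log2 difference -6.18 ± 0.78, adjusted p = 3.55e-05). Set against the sorted melanocytes (Mc) of the same line, the median marker reached 8.76% and 10.52% of the Mc level in the DF libraries, and 0.20% and 0.16% in the DP libraries. The range over the 14 markers was 3.97% to 24.63% in DF replicate 1 and 5.18% to 17.40% in DF replicate 2. Melanocyte RNA was thus present in both DF libraries at like levels, although the gate excluded CD117.

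Many keratinocyte markers were also higher in DF, but unevenly. Of 20 keratinocyte markers 19 were tested, and 11 were lower in DP, none higher and 8 not called. All 8 not called, Krt10, Krt15, Krt25, Krt27, Krt28, Krt71, Epcam and Msx2, overlapped between DP and DF. Msx2 was at 11.40% and 20.97% of its TAC level in DP and at 36.22% and 12.84% in DF. Krt27 was at 7.58% and 9.83% of its Mx level in DP and at 15.32% and 5.75% in DF. The summed level of all 20 keratinocyte markers was 178.8 and 291.6 FPKM in DP, 1504.7 FPKM in DF replicate 1 and 422.7 FPKM in DF replicate 2. Shh, the Hedgehog ligand made by matrix cells, was at 0.413 and 0.638 FPKM in DP but at 50.1 and 7.99 FPKM in DF (log2 difference -3.82 ± 0.67, adjusted p = 0.000842). Trp63, a master factor of stratified epithelium, was at 10 and 5.43 FPKM against 179 and 42.7 FPKM (log2 difference -3.40 ± 0.54, adjusted p = 0.000324). Both were far higher in DF replicate 1 than in DF replicate 2. As a share of the keratinocyte population in which each marker was highest, the median marker was 15.74% and 4.62% in DF and 1.12% and 1.80% in DP. Shh in DF replicate 1 reached 79.96% of its level in TAC, the population that shares the Lef1-RFP gate.

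Smooth muscle and pericyte markers, which have no sorted population of their own here, summed to 173.8 and 182.0 FPKM in DP and 1079.1 and 1033.2 FPKM in DF. Of 19 tested, 11 were lower in DP and none higher. Rgs5, a regulator of G-protein signalling that marks pericytes (chr1:169655501-169695813), was at 2.18 and 7.13 FPKM in DP and 386 and 389.9 FPKM in DF (log2 difference -6.25 ± 0.66, adjusted p = 5.46e-06). Kcnj8, the pore of a vascular potassium channel (chr6:142564837-142571614), had a listed value of 0 in each DP library and was at 19.8 and 21.6 FPKM in DF. The 2 DF libraries agreed closely for both. Acta2, smooth muscle actin, was at 9.38 and 15.0 FPKM against 99.0 and 105 FPKM. Pdgfrb, a receptor that fibroblasts share, was at 33.0 and 25.1 FPKM against 37.4 and 34.1 FPKM and was not called (log2 difference -0.30 ± 0.32, adjusted p = 0.689).

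Of 17 tested Schwann cell markers 11 were lower in DP and 1 higher. Sox10, shared by Schwann cells and melanocytes, was at 0 and 0.171 FPKM against 22.7 and 15.1 FPKM (log2 difference -4.17 ± 0.43, adjusted p = 4.71e-06). S100b, a calcium-binding protein, was the exception, at 43.3 and 45.1 FPKM in DP and 3.02 and 8.89 FPKM in DF (log2 difference 2.84 ± 0.69, adjusted p = 0.011, lost without DP replicate 1, DP replicate 2 or DF replicate 1, highest adjusted p = 0.181, or with a pseudocount of 0.1). Markers of other cells were sparse in all 4 libraries: the 17 endothelial markers summed to between 12.4 and 20.5 FPKM, the 17 leukocyte markers to between 6.8 and 13.6 FPKM and the 8 mast cell markers to at most 3.3 FPKM. In bulk samples, fewer cells of a type and less RNA per cell cannot be told apart.

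**Figure D1:**
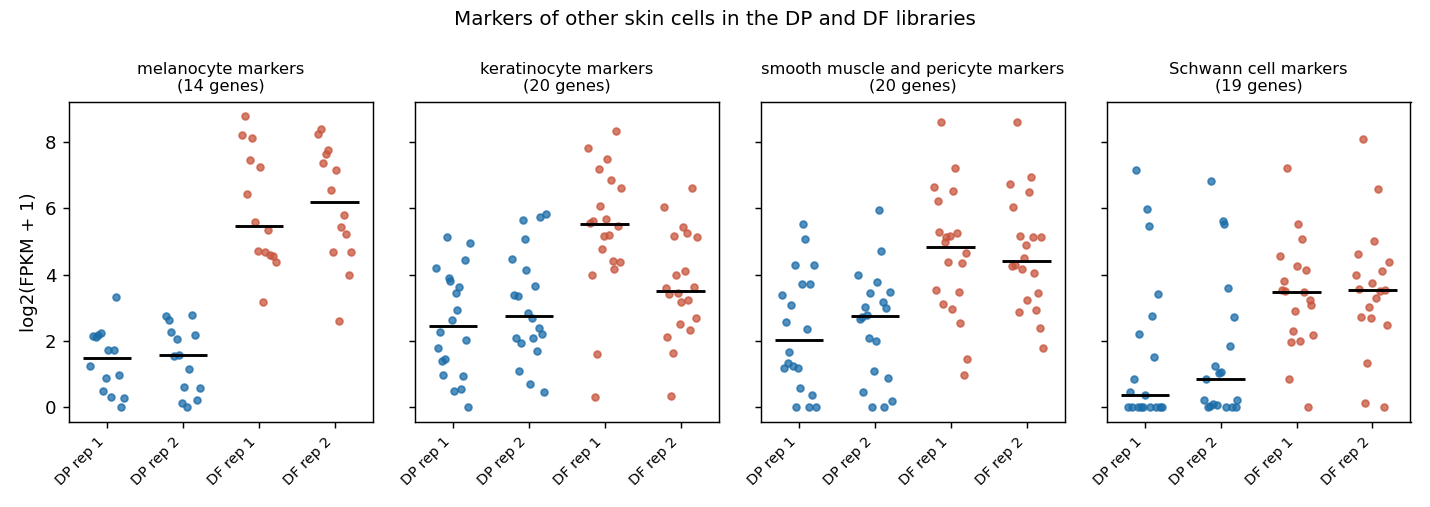
Levels of every listed marker (points) of 4 other skin cell types in each DP and DF library, on the log2(FPKM + 1) scale, with the median as a bar. Melanocyte, smooth muscle and Schwann medians are higher in both DF libraries than in both DP libraries, and the keratinocyte median is highest in DF replicate 1.

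Over all 12752 genes, limma called 396 higher in DP (3.11% of those tested) and 658 lower in DP (5.16%), with a gene called where its log2(FPKM + 1) values differed by at least 1 and the adjusted p was under 0.05. In either direction 8.27% were called. The median difference over all genes was 0.05. Leaving out DF replicate 1 brought the counts to 159 higher and 362 lower, leaving out DP replicate 1 to 212 and 406, and leaving out DP replicate 2 brought the higher count to 231. The higher count was 181 with a pseudocount of 0.1, so that 25.2% of calls were higher in place of 37.6%, and 180 with only the 4 DP and DF libraries fitted, and the lower count was 396 with a pseudocount of 5 or a filter at 5 FPKM and 293 with the 4 libraries. The filter let 189 genes pass through the DP libraries only, of which 70 were called, and 453 through the DF libraries only, of which 276 were called. Over all genes tested 8.27% were called. These genes entered the comparison only through the population where they were high, so their calls follow in part from the filter. Among the named genes, Kcnd2 passed through the DP libraries only. Those that passed through the DF libraries only include Shh, Sox10, Kcnj8, Trpc6, Scn7a, Met, Col6a5, Itga7, Adam23, Olfml2a, Gucy1a3, Fhl5, Wnt10b, Sfrp4 and Malat1. The rule's edge was gradual, with 145 genes whose second-highest value lay between 1 and 1.1 FPKM and 136 just outside it, between 0.9 and 1 FPKM.

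The 2 directions differed in where their genes were highest among the 8 populations of the line. Of the 396 genes higher in DP, 372 (93.9%) had their highest mean in DP, against 22.1% of all genes tested. Of the 658 genes lower in DP, 146 (22.2%) had their highest mean in DF, against 6.7% of all genes. Another 156 (23.7%) were highest in Mc, 116 (17.6%) in TAC, 98 (14.9%) in Epi, 62 (9.4%) in Mx, 46 (7.0%) in ORS and 34 (5.2%) in Neg. With every gene left out whose mean in another population of the line exceeded that in its higher population here, the lower count was 176 and the higher count 486, so that 73.4% of calls were higher in place of 37.6%. Direction and highest population share the same DP and DF values, so these shares are a description and carry no test.

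**Figure D2:**
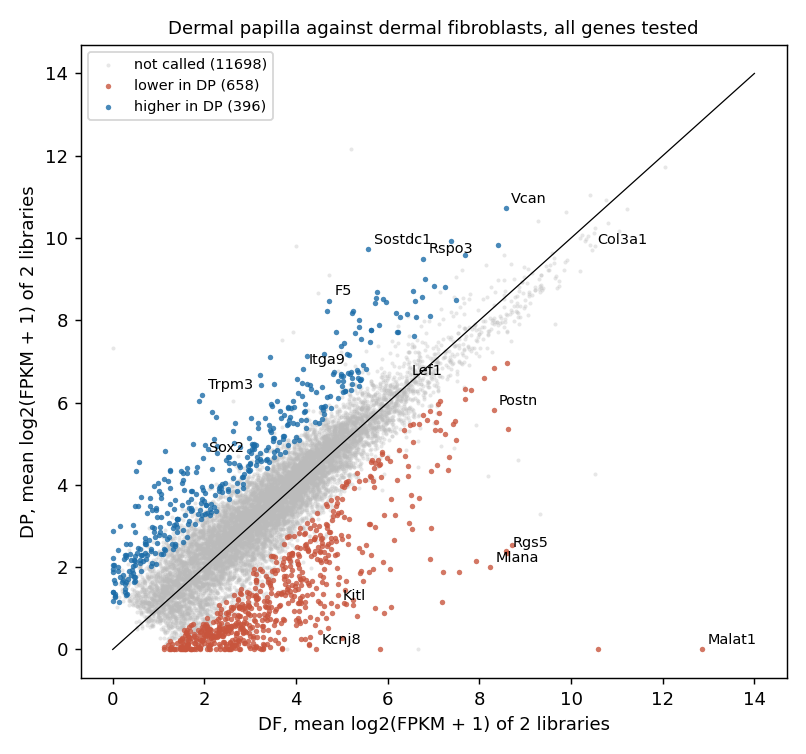
Mean log2(FPKM + 1) of the 2 DP libraries against that of the 2 DF libraries, 1 point per gene tested, with the line of equal level. The 396 genes higher in DP lie above the line, the 658 lower in DP below it, and Lef1 lies close to the line.

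**Figure D3:**
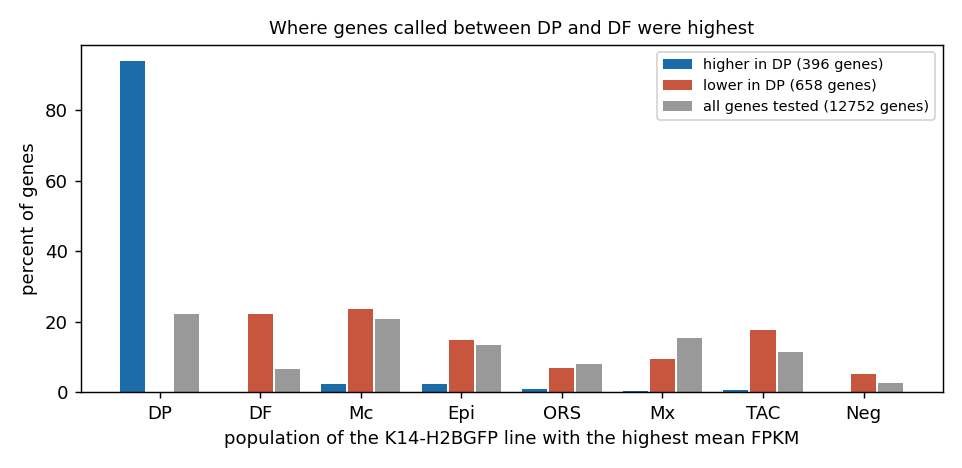
Percent of genes, among those higher in DP, those lower in DP and all tested, whose highest mean FPKM among the 8 populations of the line was in each population. Genes higher in DP were highest in DP itself in 93.9% of cases, while genes lower in DP were spread over DF (22.2%), Mc (23.7%), TAC (17.6%) and Epi (14.9%).

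The largest differences in favour of DP included channels, secreted enzymes and signals. Trpm3, a calcium-permeable cation channel (chr19:22137797-22995410), was at 70.1 and 73.8 FPKM in DP and 1.01 and 6.45 FPKM in DF (log2 difference 4.24 ± 0.50, adjusted p = 2e-05). Snap91, a clathrin-coat assembly protein of nerve endings, was at 65.5 and 64.0 FPKM against 1.04 and 5.65 FPKM (log2 difference 4.16 ± 0.42, adjusted p = 3.71e-06). F5, coagulation factor V, was at 380.1 and 334 FPKM against 14.6 and 43.0 FPKM (log2 difference 3.77 ± 0.67, adjusted p = 0.000918). In these 3 genes both DP libraries were above both DF libraries, and DF replicate 2 was the higher of the DF pair. Extracellular antioxidant enzymes were among these genes. Sod3, a superoxide dismutase, was at 40.3 and 18.2 FPKM against 1.35 and 1.05 FPKM (log2 difference 3.68 ± 0.51, adjusted p = 9.58e-05). Gpx3, a glutathione peroxidase, was at 141 and 131 FPKM against 6.63 and 14.4 FPKM (log2 difference 3.66 ± 0.73, adjusted p = 0.00249). For both enzymes each DP library was above each DF library. Pappa2, a protease that releases insulin-like growth factors from their binding proteins, was at 349.8 and 251 FPKM against 18.5 and 32.5 FPKM (log2 difference 3.54 ± 0.44, adjusted p = 2.95e-05). Mc5r, a melanocortin receptor, was at 67.9 and 151 FPKM against 3.52 and 18.0 FPKM (log2 difference 3.47 ± 0.54, adjusted p = 0.000305). The orphan receptor gene Gpr165 was at 17.9 and 20.7 FPKM against 0 and 1.03 FPKM (log2 difference 3.83 ± 0.73, adjusted p = 0.00176). Of these 8 genes only Gpx3 lost its call with 1 library left out (without DF replicate 1, adjusted p = 0.0555).

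The papilla list held 34 genes, all tested, and 20 were higher in DP and none lower, with a median log2 difference of 1.96. The list was chosen with earlier results of these data known, so its direction is not independent evidence. Beside the counts of this and later lists stand 3.11% higher and 5.16% lower over all genes tested. Of all lower genes 22.2% were highest in DF. Counts of a few called members, as in the Hox, glycolysis, cell division and reticular dermis lists, are not results about those families. Alpl, alkaline phosphatase, a long-used stain of the papilla, was at 238 and 233 FPKM in DP and 65.4 and 46.2 FPKM in DF (log2 difference 2.08 ± 0.44, adjusted p = 0.00382). Not every such gene was called. Prdm1, a repressor of transcription, was at 58.9 and 95.8 FPKM against 62.2 and 57.4 FPKM. Sox18 was at 48.2 and 59.1 FPKM against 68.6 and 26.5 FPKM. For both genes the populations overlapped. A pseudocount of 0.1 ended the Alpl call.

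Among secreted Wnt modulators, 6 of 16 tested were higher in DP and 3 lower, with a median log2 difference of 1.56. The 4 R-spondins potentiate Wnt signalling by keeping Frizzled receptors on the cell surface. Rspo4 was at 30.2 and 94.8 FPKM in DP and 1.62 and 6.77 FPKM in DF (log2 difference 3.6 ± 0.66, adjusted p = 0.0012). Rspo2 was at 78.7 and 94.3 FPKM against 6.73 and 16 FPKM (log2 difference 2.93 ± 0.40, adjusted p = 9.35e-05). Rspo3 ranked with them, at the values above. Rspo1 was at 300.0 and 239.8 FPKM against 116 and 80.3 FPKM and was not called (log2 difference 1.47 ± 0.55, adjusted p = 0.118). Ndp, norrin, a ligand of the receptor Frizzled 4, was at 48.5 and 61.9 FPKM against 8.43 and 15.6 FPKM. Inhibitors were called in both directions, with Sostdc1 and Sfrp1 higher in DP and Sfrp4, Dkk2 and Dkk3 lower. Sostdc1, an antagonist of both Wnt and BMP signals, was at 756 and 951 FPKM against 20.3 and 106 FPKM (log2 difference 4.15 ± 0.73, adjusted p = 0.000904). Sfrp1, a soluble decoy of Frizzled receptors, was at 253 and 351 FPKM against 27.3 and 50.4 FPKM (log2 difference 2.97 ± 0.44, adjusted p = 0.000183). In the other direction, the Dickkopf protein Dkk2 was at 3.64 and 5.05 FPKM in DP and 11.7 and 28.4 FPKM in DF (log2 difference -1.87 ± 0.45, adjusted p = 0.0113). Dkk3 was at 20.7 and 14.5 FPKM against 39.3 and 82.8 FPKM (log2 difference -1.66 ± 0.41, adjusted p = 0.013). Both Dickkopf calls were lost with 1 library left out (highest adjusted p = 0.158 for Dkk2 and 0.175 for Dkk3), and a pseudocount of 0.1 ended those of Rspo3, Ndp and Dkk2.

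Of 36 Wnt ligands, receptors and targets tested, none was higher in DP and 6 were lower, with a median log2 difference of 0.02, and none of the 6 was highest in DF among the 8 populations. Wnt10b, a ligand of follicle epithelium, was at 0 and 0.353 FPKM in DP, 13.1 FPKM in DF replicate 1 and 2.67 FPKM in DF replicate 2, and was highest in TAC. Tcf7, a transcription factor of the pathway, was at 2.87 and 8.08 FPKM against 33.4 and 18.4 FPKM and was highest in Mc. Fzd4, the norrin receptor, was at 3.11 and 2.54 FPKM against 11.8 and 10.2 FPKM. The target gene Axin2 was at 35 and 25.6 FPKM against 50.8 and 35.9 FPKM and was not called (log2 difference -0.50 ± 0.52, adjusted p = 0.679). The part of the keratinocyte and melanocyte RNA in these lower levels was not tested. The calls for Wnt10b, Tcf7 and Fzd4 were lost with 1 library left out (highest adjusted p = 0.167, 0.140 and 0.155), and that for Fzd4 also with a pseudocount of 0.1.

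FGF genes were tested for 23 members, of which 5 were higher in DP and 1 lower (median log2 difference 0.46). The higher ligands were those that act on the epithelial isoform of FGF receptor 2. Fgf7 was at 249 and 687 FPKM in DP and 25.8 and 108 FPKM in DF (log2 difference 2.93 ± 0.58, adjusted p = 0.00229). Fgf10 was at 57.6 and 124 FPKM against 3.75 and 17.5 FPKM (log2 difference 3.19 ± 0.50, adjusted p = 0.000319). In both genes replicate 2 was the higher library of each population, and the populations did not overlap. Fgfr1, a receptor of mesenchyme, was at 338 and 213 FPKM against 109 and 87.9 FPKM (log2 difference 1.45 ± 0.30, adjusted p = 0.00321). Among feedback genes Spry2 was at 28.4 and 25.6 FPKM against 9.41 and 11.5 FPKM. Dusp6, a phosphatase of the ERK pathway, was at 3.67 and 3.63 FPKM against 14.6 and 12.4 FPKM, and was highest in TAC. These 2 feedback genes were called in opposite directions. Left-out libraries ended the calls of Fgf7, Fgfr1 and Spry2 (highest adjusted p = 0.0938, 0.0823 and 0.256). Those of Fgf7 and Spry2 were also lost with a pseudocount of 0.1, and those of Fgfr1, Spry2 and Dusp6 with only the 4 DP and DF libraries fitted.

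Of 16 BMP and TGF-beta ligands 4 were higher in DP and 2 lower (median log2 difference 0.60). Inhba, which encodes a subunit of activin A, was at 957 and 874 FPKM in DP and 338 and 340.2 FPKM in DF (log2 difference 1.43 ± 0.43, adjusted p = 0.0423). Bmp6 was at 54.6 and 90.0 FPKM against 15.0 and 18.1 FPKM (log2 difference 2.02 ± 0.55, adjusted p = 0.0226). Gdf10 was at 94.7 and 71.8 FPKM against 29.5 and 17.7 FPKM. Bmp3, a BMP that acts as an antagonist in bone, was at 109 and 82.4 FPKM against 39.1 and 44.3 FPKM. Each of these 4 lost its call when 1 library was left out or a pseudocount of 0.1 was used. Bmp4, a papilla ligand, was at 107 and 208 FPKM against 92.5 and 81.2 FPKM and was not called (log2 difference 0.78 ± 0.41, adjusted p = 0.307). Among 18 antagonists and binding proteins 3 were higher in DP and none lower. Besides Sostdc1 these were Ltbp1 and Nog. Ltbp1, which stores latent TGF-beta in the matrix, was at 336 and 363 FPKM against 51.3 and 74.2 FPKM (log2 difference 2.48 ± 0.35, adjusted p = 0.000116). Nog, noggin, was at 14.4 and 12.7 FPKM against 2.45 and 3.49 FPKM (log2 difference 1.89 ± 0.41, adjusted p = 0.00532; without DF replicate 1, 0.0734, and lost with a pseudocount of 0.1). None of the 21 receptors and Id target genes tested was called, and their median log2 difference was 0.16.

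Hedgehog reception had 4 of 16 tested genes higher in DP and none lower (median log2 difference 0.61). Hhip, a membrane protein that binds Hedgehog ligands, was at 209.8 and 309.9 FPKM in DP and 26.4 and 62.6 FPKM in DF (log2 difference 2.62 ± 0.34, adjusted p = 5.55e-05). The other 3 were secreted Scube proteins, which help release lipid-modified Hedgehog from the cells that make it. Scube1 was at 176 and 294 FPKM against 41.2 and 39.8 FPKM (log2 difference 2.46 ± 0.39, adjusted p = 0.000346). Scube3 was at 363 and 233 FPKM against 36.3 and 36.3 FPKM (log2 difference 2.97 ± 0.59, adjusted p = 0.00241). Scube2 was at 45.5 and 20.7 FPKM against 0.529 and 6.31 FPKM (log2 difference 3.25 ± 0.73, adjusted p = 0.00669). Ptch1 and Gli1, which are only part of the target genes of the pathway, were not called. Ptch1, the receptor, was at 365 and 390.5 FPKM against 189 and 159.9 FPKM (log2 difference 1.11 ± 0.35, adjusted p = 0.0538). Gli1 was at 53.3 and 52.1 FPKM against 27.1 and 18.2 FPKM (log2 difference 1.21 ± 0.48, adjusted p = 0.14). Ptch1 and Gli1 were both at higher FPKM in each DP library than in each DF library, which is a description only. Scube2 lost its call without DP replicate 1 or DF replicate 1 (highest adjusted p = 0.184).

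The Notch pathway leaned the other way, with 1 of 16 tested genes higher in DP, 4 lower and a median log2 difference of -0.65. Hey2, a target repressor, was at 86.9 and 125 FPKM in DP and 35.3 and 32.6 FPKM in DF (log2 difference 1.59 ± 0.42, adjusted p = 0.0183). Its relative Heyl, which vascular mural cells express, was at 4.11 and 3.82 FPKM against 35.2 and 23.3 FPKM (log2 difference -2.58 ± 0.39, adjusted p = 0.000226) and was highest in DF. Hes1 was at 5.88 and 2.64 FPKM against 26.7 and 14.9 FPKM (log2 difference -2.07 ± 0.38, adjusted p = 0.00132) and was highest in TAC. Related targets of 1 pathway were thus called in opposite directions. Heyl moved with the smooth muscle and pericyte markers, whose sums were 1079.1 and 1033.2 FPKM in DF, and their part in it was not tested. The Hey2 call was lost with DP replicate 2, DF replicate 1 or DF replicate 2 left out (highest adjusted p = 0.148) and with a pseudocount of 0.1.

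Of 46 other growth factors and receptors tested, 9 were higher in DP and 13 lower (median log2 difference -0.20), and 2 of the 13 were highest in DF. Edn3, endothelin 3, which stimulates melanocytes, was at 302 and 384 FPKM in DP and 40.7 and 66.4 FPKM in DF (log2 difference 2.69 ± 0.34, adjusted p = 3.52e-05). Vegfa, the main vascular growth factor, was at 76.2 and 97.8 FPKM against 11.8 and 26.5 FPKM (log2 difference 2.22 ± 0.39, adjusted p = 0.00085). Nrg2, a neuregulin, was at 14.9 and 15.9 FPKM against 0.109 and 2.57 FPKM (log2 difference 3.04 ± 0.69, adjusted p = 0.00706; without DF replicate 1, 0.163). These 3 ligands were higher in both DP libraries than in either DF library. Kitl, the ligand of Kit, ran the other way, at 0.625 and 1.68 FPKM against 33.8 and 24.6 FPKM (log2 difference -3.84 ± 0.49, adjusted p = 3.86e-05), and was highest in TAC. Pdgfa, a fibroblast mitogen made by epithelium, was at 8.29 and 12.6 FPKM against 118 and 70.2 FPKM (log2 difference -3.04 ± 0.47, adjusted p = 0.000273) and was highest in Epi. The receptors Met and Erbb3 were at 0.173 and 0.199 FPKM against 15.5 and 19.5 FPKM, and at 0.297 and 1.08 FPKM against 18.3 and 12.4 FPKM, and both were highest in Mc. Igf1 was at 7.00 and 10.5 FPKM against 18.5 and 43.7 FPKM (log2 difference -1.62 ± 0.49, adjusted p = 0.0414) and was highest in DF, with the call lost in 3 of 4 cases of a library left out (highest adjusted p = 0.335) and with a pseudocount of 0.1.

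**Figure D4:**
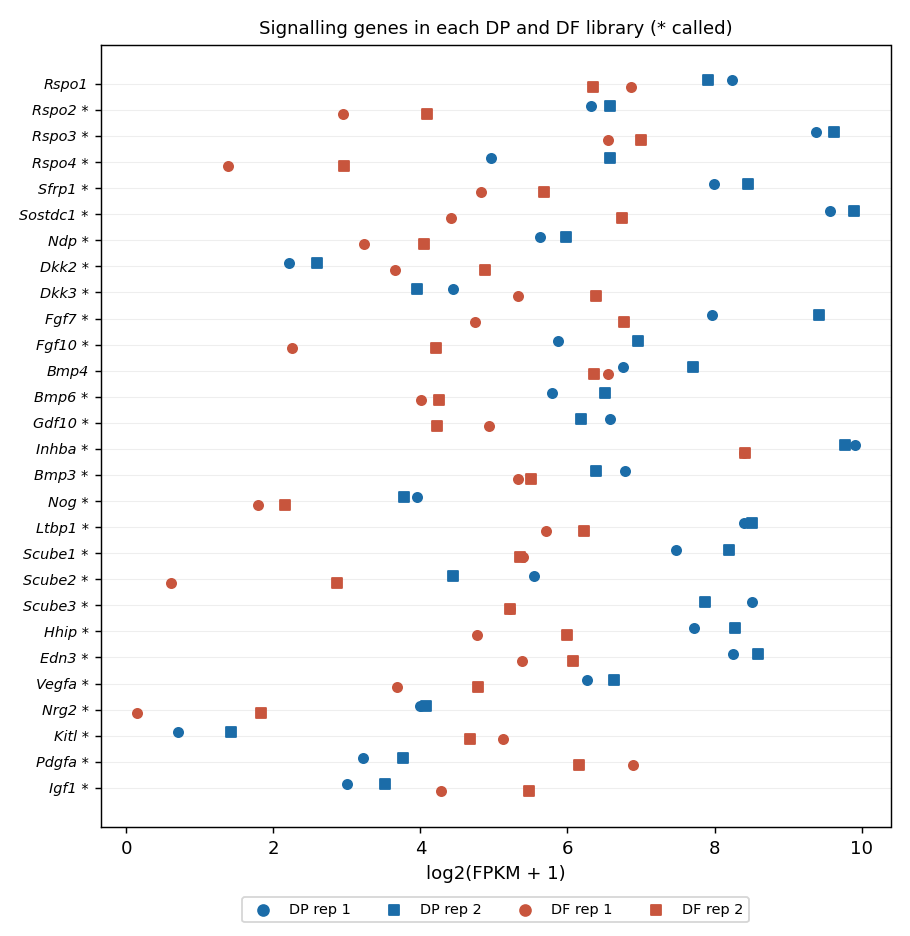
Level of 28 signalling genes in each library on the log2(FPKM + 1) scale, circles for replicate 1 and squares for replicate 2, with an asterisk on genes called between populations. The R-spondins, Scube genes and Edn3 lie further right in both DP libraries, and Kitl, Pdgfa, Dkk2 and Dkk3 further right in both DF libraries.

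The promoters of 4 secreted signals that were higher in DP together are shown, as the 250 bases before the annotated RefSeq start on the + strand of GRCm38.p6. They are Rspo4 (chr2:151842677-151842926), Fgf7 (chr2:126034408-126034657), Fgf10 (chr13:118714449-118714698) and Edn3 (chr2:174760369-174760618). The Rspo4 window precedes a start inside the annotated span of the gene, which begins at chr2:151842647, and the other 3 end just before the first base of theirs. Capitals mark matches, on either strand, to the TCF/LEF core CTTTGA, the E-box CACGTG or the TATA box TATAAA.
Rspo4: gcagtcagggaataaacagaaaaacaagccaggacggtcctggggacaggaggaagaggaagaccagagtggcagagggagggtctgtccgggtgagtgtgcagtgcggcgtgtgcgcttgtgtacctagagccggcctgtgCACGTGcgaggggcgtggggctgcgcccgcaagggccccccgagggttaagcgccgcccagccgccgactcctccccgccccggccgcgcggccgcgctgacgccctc
Fgf7: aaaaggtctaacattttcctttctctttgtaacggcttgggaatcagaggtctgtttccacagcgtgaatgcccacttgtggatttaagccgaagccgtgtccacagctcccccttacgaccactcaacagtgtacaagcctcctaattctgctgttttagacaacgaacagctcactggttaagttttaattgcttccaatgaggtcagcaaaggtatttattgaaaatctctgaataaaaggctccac
Fgf10: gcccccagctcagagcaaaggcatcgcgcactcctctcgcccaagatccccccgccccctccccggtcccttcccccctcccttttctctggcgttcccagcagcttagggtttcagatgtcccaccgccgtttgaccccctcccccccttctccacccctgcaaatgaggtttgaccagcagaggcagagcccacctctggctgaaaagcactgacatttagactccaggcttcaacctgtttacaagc
Edn3: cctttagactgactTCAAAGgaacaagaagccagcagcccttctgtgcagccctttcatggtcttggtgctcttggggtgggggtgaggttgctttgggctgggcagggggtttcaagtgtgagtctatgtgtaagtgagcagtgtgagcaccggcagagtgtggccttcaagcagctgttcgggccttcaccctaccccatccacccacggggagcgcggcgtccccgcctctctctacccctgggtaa
Rspo4 held 1 E-box, beginning 108 bases before the start, and Edn3 1 TCF/LEF core, beginning 236 bases before it, while the windows of Fgf7 and Fgf10 held none of the 3 motifs. Over all 32851 RefSeq promoter windows of this length the TCF/LEF core was found in 13.83%, the E-box in 6.02% and the TATA box in 12.37%. Of the 396 genes higher in DP 269 matched a promoter, with 352 windows, and of the 658 lower in DP 456 matched. The TCF/LEF core was in 10.80% of windows of genes higher in DP, 12.73% of those lower and 10.35% of those of all genes tested. The corresponding shares were 6.53%, 7.54% and 8.30% for the E-box, and 9.38%, 12.40% and 6.51% for the TATA box. A match is a description of the letters and not a binding site.

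Axon guidance genes were called in both directions, with 4 of 46 higher in DP, 5 lower and a median log2 difference of -0.07. Over all genes tested 3.11% were higher and 5.16% lower. Dcc, a netrin receptor, was at 46.1 and 52.8 FPKM in DP and 2.03 and 6.57 FPKM in DF (log2 difference 3.39 ± 0.38, adjusted p = 9.9e-06). Unc5c, its partner in repulsive netrin responses, was at 23.6 and 15.6 FPKM against 1.73 and 1.86 FPKM (log2 difference 2.85 ± 0.45, adjusted p = 0.000319). Both netrin receptors kept the populations apart and stayed called with each library left out. The semaphorin co-receptor Nrp1 was lower, at 2.99 and 1.97 FPKM against 11.4 and 21.3 FPKM (log2 difference -2.28 ± 0.51, adjusted p = 0.00695; highest with 1 library left out 0.0795), and none of the 5 lower genes was highest in DF. Of 14 chemokine genes tested none was higher and 3 were lower, among them Cxcl12, at 0.108 and 3.27 FPKM against 10.8 and 22.9 FPKM (log2 difference -2.95 ± 0.62, adjusted p = 0.00397; 0.120 at most with 1 library left out). Retinoic acid genes had 2 of 15 higher and 2 lower. The retinoid-binding proteins Crabp1 and Crabp2 were at 813 and 1148 FPKM against 144 and 194 FPKM, and at 167 and 117 FPKM against 16.8 and 19.3 FPKM (log2 differences 2.53 ± 0.72 and 2.89 ± 0.76, adjusted p = 0.0311 and 0.0186). The Crabp1 and Crabp2 calls were lost whichever library was left out. These calls and the Nrp1 call were also lost with a pseudocount of 0.1.

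Of 67 mesenchymal transcription factors tested, 11 were higher in DP and 15 lower (median log2 difference 0.07), and 10 of the 11 were highest in DP while 4 of the 15 were highest in DF. Zfhx4, a large zinc-finger homeobox factor, was at 35.8 and 24.4 FPKM against 2.51 and 5.75 FPKM (log2 difference 2.65 ± 0.82, adjusted p = 0.0492), close to the threshold and lost whichever library was left out (highest adjusted p = 0.318). Sox2 and Alx4, given above, were also among the higher factors. Factors lower in DP included genes highest in epithelial populations. Bnc2, a zinc-finger protein, was at 1.78 and 0.524 FPKM against 28.6 and 10.4 FPKM (log2 difference -3.16 ± 0.51, adjusted p = 0.000409). Lhx2, a factor of follicle epithelium, was at 1.88 and 0.275 FPKM against 22.1 and 4.91 FPKM (log2 difference -2.61 ± 0.69, adjusted p = 0.02). Both were highest in ORS. Their DF values, like the keratinocyte markers, were higher in replicate 1 than in replicate 2, and the part of keratinocyte RNA in them was not tested. Twist2, a factor of dermal fibroblasts, was highest in DF, at 9.24 and 7.90 FPKM in DP and 22.4 and 32 FPKM in DF (log2 difference -1.54 ± 0.42, adjusted p = 0.025), and its call was lost whichever library was left out (highest adjusted p = 0.153). Among 25 Hox genes tested only Hoxc8 was called higher in DP, at 99.4 and 114 FPKM against 31.8 and 49.4 FPKM (log2 difference 1.40 ± 0.40, adjusted p = 0.0316; up to 0.288 with 1 library left out), and only Hoxc13, a factor of the hair shaft that was highest in TAC, lower, at 3.9 and 2.05 FPKM against 119 and 35.1 FPKM (log2 difference -4.09 ± 0.41, adjusted p = 3.71e-06). A pseudocount of 0.1 ended the calls of Zfhx4, Sox2, Alx4, Twist2 and Hoxc8, and a pseudocount of 5 that of Lhx2. The Lhx2 call was also lost without DP replicate 2 or DF replicate 1, and with only the 4 DP and DF libraries fitted. Without DF replicate 1 its log2 difference was -1.63.

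Matrix genes were called in both directions. Of 48 fibrous matrix genes tested 4 were higher in DP and 8 lower (median log2 difference -0.14), and 5 of the 8 were highest in DF. Col15a1, a collagen of basement membrane zones, was at 329 and 256 FPKM in DP and 80.8 and 62.4 FPKM in DF (log2 difference 2.02 ± 0.38, adjusted p = 0.00146). Col23a1, a transmembrane collagen, was at 139.6 and 145 FPKM against 31.9 and 37.8 FPKM (log2 difference 2.00 ± 0.41, adjusted p = 0.00283). Both collagens stayed called with each library left out. Col6a5, a chain of collagen VI, was at 0.0353 and 0.047 FPKM in DP and 9.79 and 6.00 FPKM in DF (log2 difference -3.06 ± 0.29, adjusted p = 1.65e-06). Eln, elastin, was at 13.2 and 20.3 FPKM against 63.2 and 83.9 FPKM (log2 difference -2.09 ± 0.54, adjusted p = 0.0165; 0.160 at most with 1 library left out, and lost with a pseudocount of 0.1). Postn, periostin, was at 40.7 and 74.2 FPKM against 191 and 525 FPKM (log2 difference -2.50 ± 0.49, adjusted p = 0.00199), with the call lost without DF replicate 2 (adjusted p = 0.0501). Col1a1 and Col3a1, the main fibrillar collagens, were not called. Col1a1 was at 781 and 217 FPKM against 529 and 768 FPKM. Col3a1 was at 1010.3 and 698 FPKM against 832 and 2358 FPKM. For both the DP and DF libraries overlapped.

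Of 28 basement membrane genes 3 were higher in DP and 8 lower (median log2 difference -0.43), and none of the 8 was highest in DF. Frem1, which anchors epidermis to dermis, was at 209.8 and 207 FPKM in DP and 63.9 and 82.6 FPKM in DF (log2 difference 1.51 ± 0.29, adjusted p = 0.0016). Lamc3, a laminin chain, was at 42.0 and 44.3 FPKM against 13.8 and 12.1 FPKM (log2 difference 1.67 ± 0.36, adjusted p = 0.00511). Both calls were lost with a pseudocount of 0.1. Col18a1, whose cleavage gives endostatin, was at 2.59 and 1.47 FPKM against 18.6 and 14.1 FPKM (log2 difference -2.53 ± 0.42, adjusted p = 0.000555) and was highest in ORS. Among 33 proteoglycan, hyaluronan and tenascin genes 4 were higher and 4 lower (median log2 difference 0.08). Vcan, versican, a large proteoglycan abundant in the papilla, was at 1880.2 and 1526 FPKM against 319 and 454 FPKM (log2 difference 2.15 ± 0.40, adjusted p = 0.00137). Sulf1, which trims sulfate groups from heparan sulfate, was at 179 and 151 FPKM against 25.5 and 37.1 FPKM (log2 difference 2.38 ± 0.31, adjusted p = 5.39e-05). Both were well separated between populations. Fmod, fibromodulin, a collagen-binding proteoglycan, was lower and highest in DF, at 1.99 and 0.376 FPKM against 13.3 and 7.48 FPKM (log2 difference -2.44 ± 0.43, adjusted p = 0.000842).

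Of 37 matrix proteases and inhibitors 4 were higher in DP and 6 lower (median log2 difference -0.33). Besides Corin the higher genes included the protease inhibitor Serpine2, at 415 and 503 FPKM in DP and 114 and 145 FPKM in DF (log2 difference 1.82 ± 0.53, adjusted p = 0.035; up to 0.223 with 1 library left out). Adam23, a cell-surface protein without protease activity, was at 0.506 and 0.869 FPKM against 12.4 and 12 FPKM (log2 difference -2.98 ± 0.41, adjusted p = 9.11e-05) and was highest in DF. Adam12, a membrane protease, was likewise highest in DF, at 5.75 and 2.57 FPKM against 23.2 and 33.6 FPKM (log2 difference -2.56 ± 0.65, adjusted p = 0.0157; up to 0.140 with 1 library left out). Of 38 adhesion receptors 3 were higher, Itga9, Ncam1 and Ncam2, and 10 lower (median log2 difference -0.12), with 4 of the 10 highest in DF. Ncam1, neural cell adhesion molecule, was at 128 and 94.7 FPKM in DP and 30.2 and 51.4 FPKM in DF (log2 difference 1.46 ± 0.40, adjusted p = 0.0235; up to 0.278 with 1 library left out). The calls of Serpine2, Adam12, Ncam1 and Ncam2 were lost with a pseudocount of 0.1. Itga4 and Itga7, 2 other integrin alpha chains, were lower and highest in DF. Itga4 was at 0.836 and 1.61 FPKM against 12.4 and 21.0 FPKM (log2 difference -2.97 ± 0.36, adjusted p = 2.63e-05). Itga7, a laminin receptor of muscle, was at 0 and 0.0747 FPKM against 12.5 and 4.34 FPKM (log2 difference -3.03 ± 0.43, adjusted p = 0.000114). Cdh3, P-cadherin of follicle epithelium, was at 2.25 and 3.21 FPKM against 80.2 and 27.9 FPKM (log2 difference -3.71 ± 0.38, adjusted p = 4.27e-06) and was highest in TAC.

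Among 42 ion channel and synaptic genes 8 were higher in DP and 11 lower (median log2 difference 0.32), and 7 of the 11 were highest in DF. After Trpm3 and Snap91 the largest was Kcnd2, a voltage-gated potassium channel, at 11.8 and 8.93 FPKM in DP and 0.354 and 0.576 FPKM in DF (log2 difference 2.95 ± 0.48, adjusted p = 0.000434). The lower genes included both subunits of a vascular ATP-sensitive potassium channel. The pore Kcnj8 is given above, and its partner Abcc9 was at 1.26 and 1.13 FPKM against 35.1 and 28.9 FPKM (log2 difference -3.91 ± 0.35, adjusted p = 1.51e-06). Trpc6, a cation channel of smooth muscle, was at 0 and 0.0934 FPKM against 5.11 and 5.23 FPKM (log2 difference -2.56 ± 0.21, adjusted p = 4.75e-07). Scn7a, a sodium channel of glia, was at 0 and 0.16 FPKM against 3.58 and 20.1 FPKM (log2 difference -3.19 ± 0.53, adjusted p = 0.000485). All 4 were highest in DF, where the pericyte and Schwann marker sums were also higher, and the part of that RNA in them was not tested.

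Of 37 cell division genes none was called higher in DP and 3 lower, with a median log2 difference of -0.06. Mki67, a proliferation marker, was at 90.3 and 41.3 FPKM in DP and 104 and 62.5 FPKM in DF. Of 13 cell cycle inhibitors Cdkn1a alone was called, lower at 28.8 and 15.2 FPKM against 129.8 and 56.3 FPKM (log2 difference -1.98 ± 0.44, adjusted p = 0.0062; up to 0.162 with 1 library left out), and it was highest in TAC. Immediate early and dissociation stress genes had 4 of 29 higher in DP and 1 lower, with a median log2 difference of 0.81, and are listed because enzymatic dissociation induces them. Socs3, a feedback inhibitor of cytokine signalling, was at 201 and 149 FPKM against 40.0 and 25.6 FPKM (log2 difference 2.40 ± 0.59, adjusted p = 0.0126). Fos was at 453 and 435 FPKM against 165 and 140.3 FPKM (log2 difference 1.54 ± 0.44, adjusted p = 0.0311). Both calls were lost with 1 library left out (highest adjusted p = 0.114 and 0.150). Among 21 glycolysis genes 1 was higher, Slc2a1, a glucose transporter, at 20.8 and 16 FPKM against 7.77 and 4.97 FPKM (log2 difference 1.41 ± 0.32, adjusted p = 0.00705; up to 0.0885 with 1 library left out), which was highest in Epi.

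Of 14 general fibroblast markers tested none was higher in DP and 4 were lower (median log2 difference -0.85), 3 of the 4 being highest in DF. The summed levels of the 15 listed overlapped, at 4090.6 and 2420.2 FPKM in DP and 3341.3 and 6996.3 FPKM in DF. Thy1, a surface glycoprotein of fibroblasts, was at 40.4 and 14.7 FPKM against 158 and 163 FPKM (log2 difference -2.66 ± 0.65, adjusted p = 0.0113; up to 0.149 with 1 library left out, and lost with a pseudocount of 0.1). Pdgfra, a receptor of dermal mesenchyme, was at 155 and 140.0 FPKM against 41.6 and 103 FPKM and was not called (log2 difference 1.15 ± 0.44, adjusted p = 0.118). RNA of the listed fibroblast markers was thus plentiful in both populations, and their sum was lower in DF replicate 1 than in DF replicate 2. Not every marker followed the sum: Thy1 was alike in the DF libraries, and Col6a2 was at 235 and 216 FPKM in them. Which cells gave this RNA was not tested. Of the lineage genes, 3 of 12 tested of the papillary dermis were higher in DP and 1 lower (median log2 difference -0.59), and 1 of 23 of the reticular dermis and preadipocyte list was higher and 2 lower (median -0.65). Dpp4, an upper-dermis marker, was at 8.19 and 4.26 FPKM in DP and 6.49 and 35.9 FPKM in DF. Dlk1, a lower-dermis marker, was at 18.2 and 11 FPKM against 4.28 and 2.80 FPKM, and neither gene was called. Ptgds, which makes prostaglandin D2, was the 1 papillary gene lower in DP, at 8.14 and 2.65 FPKM against 487 and 354 FPKM (log2 difference -6.17 ± 0.84, adjusted p = 8.68e-05), and it was highest in Mc.

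Papilla cells of 4 other sorts in the series were also sequenced, and their libraries entered the fit's estimate of spread but not the DP and DF means. These cells were also Lef1-RFP+ and ITGA9Hi, but came from mice carrying Sox2-GFP (ZZ-DP, labelled zig-zag, and G/AA-DP, labelled guard and awl/auchene) or Crabp1-GFP (G-DP, labelled guard, and AA/ZZ-DP, labelled awl/auchene and zig-zag), with 2 libraries each. Of the 396 genes higher in DP, 331 (83.6%) had a mean in each of the 4 other sorts above both DF libraries, against 21.6% of all genes tested. Of the 658 lower in DP, 500 (76.0%) had a mean in each other sort below both DF libraries, against 17.0% of all genes. The DF values are the same in both comparisons and the mouse line differs, so these shares are a description. Trpm3 had means of 89.4 ± 36.0 FPKM (SD, n = 2) in ZZ-DP, 114 ± 62.7 in G/AA-DP, 95.0 ± 16.3 in G-DP and 136 ± 4.56 in AA/ZZ-DP, beside 72.0 ± 2.60 in DP. Rspo4 was higher in the other sorts than in DP, at 440.4 ± 188 FPKM in ZZ-DP, 440.0 ± 370.2 in G/AA-DP, 298 ± 224 in G-DP and 355 ± 222 in AA/ZZ-DP, with a wide spread between libraries. Exceptions among the genes named by the rule were Cebpd, Hoxc8, Scube2, Sox2 and Zfhx4, which were higher in DP but did not lie above both DF libraries in each other sort. Sox2 averaged 2.48 ± 3.38 FPKM in ZZ-DP, 2.40 ± 3.40 in G/AA-DP, 3.24 ± 1.63 in G-DP and 6.66 ± 0.757 in AA/ZZ-DP, against 24.6 ± 6.07 in DP and 3.13 ± 1.75 in DF. The ZZ-DP, G/AA-DP and G-DP means of Sox2 thus lay between the 2 DF libraries, and the AA/ZZ-DP mean lay above both.

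The genes lower in DP that were highest in DF among the 8 populations were led by Malat1, a nuclear noncoding RNA, at 5645 and 9696 FPKM in DF and listed at 0 in the 2 DP libraries. Malat1 was also listed at 0 in all 4 other papilla sorts, while Mc averaged 4383 FPKM. The transcript is abundant in nearly every cell, so the listed 0 may be a failed estimate, and no fold is given. Of the called genes, 41 of those lower were listed at 0 in both DP libraries and 8 of those higher at 0 in both DF libraries. Rgs5, Kcnj8, Abcc9 and Des, all from the smooth muscle and pericyte list, were among the 10 largest. Des, a muscle intermediate filament, was at 1.5 and 0.367 FPKM against 37.8 and 18.8 FPKM (log2 difference -3.9 ± 0.51, adjusted p = 5.4e-05). The rest lay outside that list, and which cells gave their RNA was not tested. Olfml2a, an extracellular olfactomedin-like protein, was at 0 and 0.518 FPKM against 21.4 and 16.5 FPKM (log2 difference -4.01 ± 0.37, adjusted p = 1.65e-06). S100a4, a calcium-binding protein of motile cells, was at 7.51 and 5.99 FPKM against 138 and 108 FPKM (log2 difference -4.00 ± 0.70, adjusted p = 0.00085). Gucy1a3, a subunit of the nitric oxide receptor in smooth muscle, was at 0.062 and 0.352 FPKM against 15.7 and 16.6 FPKM (log2 difference -3.84 ± 0.35, adjusted p = 1.51e-06). Fhl5 was at 0.78 and 0.639 FPKM against 35.5 and 16.4 FPKM (log2 difference -3.88 ± 0.46, adjusted p = 1.93e-05). Aoc3, an amine oxidase of vascular smooth muscle and fat, was at 2.62 and 1.77 FPKM against 58.6 and 31.5 FPKM (log2 difference -3.79 ± 0.44, adjusted p = 1.53e-05). All of these genes with a test value kept their call with each library left out. In the mixed fraction Neg, Olfml2a, S100a4, Gucy1a3, Fhl5 and Aoc3 averaged 11.85, 20.89, 9.55, 7.24 and 36.68 FPKM. Rgs5 averaged 182.76 FPKM there.

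**Figure D5:**
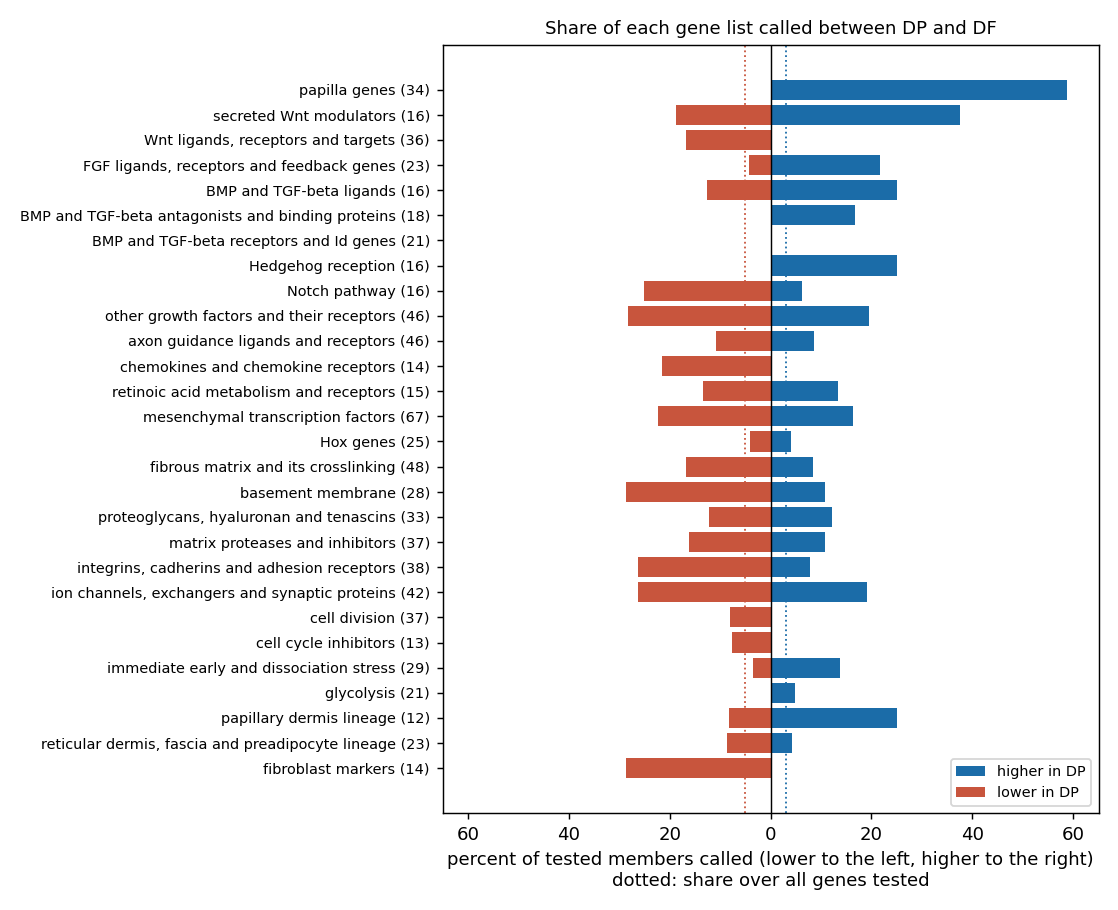
Percent of the tested members of each gene list called lower in DP (to the left) and higher in DP (to the right), with the number tested after each name and the share over all genes (3.11% higher, 5.16% lower) as dotted lines. The papilla list (20 of 34 higher) and secreted Wnt modulators (6 of 16) reach furthest right, and no receptor or Id gene of the BMP and TGF-beta group was called.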

How the data were processed

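Back skin cells were sorted by flow cytometry, and 6 ng of total RNA was amplified from samples whose RNA integrity number reached 8.8, per the labels' protocols. The authors deposited 1 table of FPKM values with a column for each library. TopHat2 2.0.3, Bowtie2, Cufflinks 2.1.1 and the build mm10 are named in the submitters' processing notes. Of the annotation, use of strand and scaling between libraries nothing is given in the sources used here, so overlapping and antisense genes cannot be separated. Of 23235 rows, 220 identical rows were dropped, 64 of those kept shared a symbol and 170 joined several names. Whole reads could not be recovered: the commonest ratio of low values between 2 of the 4 libraries, within 0.02 on the log2 scale, covered 2.7% to 24.4% of genes. A value of exactly 0 can be a failed estimate and is given as listed at 0. Amplification from little RNA limits the precision of low genes.

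Genes that reached 1 FPKM in 2 or more of the 4 DP and DF columns were tested on log2(FPKM + 1) with limma 3.58.1 in R 4.3.3, two-sided, over all 28 libraries with 1 mean per population and a trended empirical Bayes prior (14 residual and 5.98 prior degrees of freedom). The pseudocount of 1 understates differences of low genes. Benjamini-Hochberg adjustment ran over 12752 genes, and calls needed a log2 difference of at least 1 besides an adjusted p under 0.05. The fit was checked on simulated data. An exact permutation test of 2 against 2 libraries cannot go below p = 0.333 and was not used.

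The 39 gene lists, the members and the rule for named genes were chosen with earlier results of these data known, and lists are described by counts and medians without a test. Named genes were the gate genes and given markers, the 12 largest higher and 8 largest lower called genes whose higher mean reached 5 FPKM, the 10 largest lower genes highest in DF, and up to 4 in each direction per list, leaving out predicted and joined names, with uncalled relatives for comparison. Positions and promoters are those of RefSeq for GRCm38.p6. Means of the 4 other papilla sorts were compared with the DF values as a description added after the data were seen. Alternatives covered the pseudocount, the filter, scaling, the samples in the fit, a replicate block and leaving out each library. A few genes that the rule names are not reported here.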

Additional observations from a re-analysis of the deposited data

How the results depend on the processing

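The count of genes higher in DP, 396 as reported, was 181 with a pseudocount of 0.1 and 180 when only the 4 DP and DF samples were fitted, which leaves 2 residual degrees of freedom. The count of genes lower in DP, 658 as reported, was 396 with a pseudocount of 5, 396 with a filter at 5 FPKM, 293 with the 4 samples only, and 176 among the 3662 genes left when those higher in another population of the line were left out, where 486 were higher. With the replicate block the counts were 597 higher and 860 lower. Leaving out 1 library at a time gave 159 to 371 higher and 362 to 611 lower. The share of calls that were higher was 37.6% as reported, 25.2% with a pseudocount of 0.1 and 73.4% with the genes higher in another population left out. Lef1, uncalled at a log2 difference of 0.13, was between -0.43 (without DF replicate 2) and 0.70 (without DF replicate 1) with 1 library left out, the former being the only reversed value among 2104 values of named genes under the alternatives. In those, 1785 kept their direction and their side of the threshold and 318 lost a call. Of the 150 called genes named by the rule, 71 kept their call under every alternative, 73 lost it without at least 1 library, 47 with a pseudocount of 0.1, 33 with the 4 samples only and 1 (Zfhx4) with the replicate block. Same-numbered libraries of the line deviated together in 27 of 28 pairs of populations at a correlation over 0.1 (0.062 to 0.313, DP and DF at 0.151). The labels do not say what a number marks, so the block is given here and not beside the results. With no counts, what depth limits cannot be computed.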
